A study of Homo sapiens with 12 samples.

Results

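Ferroptosis is an iron-dependent form of cell death in which lipid peroxides accumulate in membranes. The 10 genes described here encode proteins that hold those peroxides down. They were picked by name from the 36866 genes of the table, with earlier results of these data known. SLC7A11 and SLC3A2 are the light and heavy chains of the cystine/glutamate antiporter. GCLC, GCLM and GSS make glutathione from the imported cystine, and GSR returns oxidized glutathione to its reduced form. GPX4 uses glutathione to reduce lipid hydroperoxides inside membranes, and GPX1 uses it to reduce hydrogen peroxide in the cytosol. AIFM2 (FSP1) and DHODH reduce ubiquinone, at the plasma membrane and in mitochondria respectively, and protect lipids without glutathione.

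The levels are mRNA levels in 4 groups of 3 libraries. THP-1 and U-937 are human myeloid leukemia cell lines, labelled as acute myeloid leukemia with a complex karyotype, and both were kept in RPMI 1640 with fetal bovine serum. Each line received honokiol, a biphenol from magnolia bark, or 0.1% DMSO for 24 h. The labels list honokiol at 20 and 35 μM without saying which line received which dose, so the dose cannot be told apart from the line where the 2 responses are compared. Each line is a single established line, and nothing states that the 3 libraries of a group came from separate cultures. The p-values therefore measure the spread between libraries, which may be technical.

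The libraries held between 57406966 and 75065752 estimated counts, of which about 4 make 1 fragment. The first DMSO replicate of each line stood apart by its share of mitochondrial transcripts, 13.7% (THP-1) and 12.6% (U-937), where the other 10 libraries held 5.61% to 7.55%. SLC3A2, GPX1, AIFM2 and DHODH each had their lowest DMSO value in replicate 1 in both lines, so the honokiol values of these genes are given with and without them. All 10 myeloid markers were detected in every library, although MPO, a granule enzyme, stood at only 0.0833 FPKM (fragments scaled by gene length and library size) in U-937 cells with DMSO. The summed level of that list ran from 622.0 to 671 FPKM in the DMSO group of THP-1 and from 692.5 to 697.1 FPKM in its honokiol group. The same sum in U-937 ran from 568 to 892 FPKM and from 477 to 569 FPKM. There LYZ alone averaged 489 FPKM with DMSO and 282 FPKM with honokiol, while the median log2 fold change of the 9 tested markers was 0.03. Of 10 markers of other cell types 7 were in the table, and PECAM1, which myeloid cells also express, made up most of their summed level of 14.2 to 52.5 FPKM, while 1 to 4 of the 7 were at 0. In bulk RNA, fewer cells that express a gene and less RNA per cell cannot be told apart.

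Several of these genes are known targets of NRF2, a transcription factor that binds the antioxidant response element. The core of that element, TGACNNNGC, was searched on both strands in the 250 bases before each start that RefSeq gives on GRCh38.p14. GSR was not searched. Of the other genes 7 had entries, 11 in all, and 3 genes held the core in 3 entries. The stretches are shown because they hold the core, which the entries of GCLC, GPX4, GPX1 and DHODH did not, on the strand of each gene and with the matching bases in capitals. The first lies at chr10:70132828-70132857 (minus strand), the second at chr1:93909445-93909474 (minus strand) and the third at chr11:62881652-62881681 (plus strand).
AIFM2: cagcacgagtGCTGAGTCAcgccccgcccg
GCLM: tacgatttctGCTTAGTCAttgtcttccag
SLC3A2: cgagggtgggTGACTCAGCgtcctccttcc
The match began 22, 34 and 37 bases before the start in AIFM2, GCLM and SLC3A2. Read in the direction of the core, AIFM2 and SLC3A2 held the same 9 letters, TGACTCAGC, which also contain the AP-1 motif TGACTCA. In SLC3A2 the match stood before 1 of 3 starts. Of 35116 RefSeq promoters of this length 3830, or 10.9%, held the core. A match describes the letters of the window and not binding.

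The 10 genes covered a wide range of levels, in nearly the same order in the 4 groups. In THP-1 cells with DMSO, GPX1 and GPX4 stood highest at 105 ± 30.4 and 69.9 ± 7.14 FPKM (SD, n = 3), and their libraries overlapped. GSR followed at 18.4 ± 0.536, SLC3A2 at 10.4 ± 1.01 and GSS at 7.00 ± 0.435 FPKM, each with no overlap with the next gene in order. GCLM and AIFM2, at 4.45 ± 0.659 and 3.83 ± 1.01 FPKM, overlapped. GCLC, DHODH and SLC7A11 stood lowest, at 1.27 ± 0.460, 1.10 ± 0.351 and 1.003 ± 0.248 FPKM, and could not be ordered beyond their spread. The same 4 genes led the order in all 4 groups. With honokiol SLC7A11 moved from rank 10 to rank 8 in THP-1 cells and from rank 8 to rank 6 in U-937 cells, and AIFM2 was last in both U-937 groups.

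**Figure D1:**
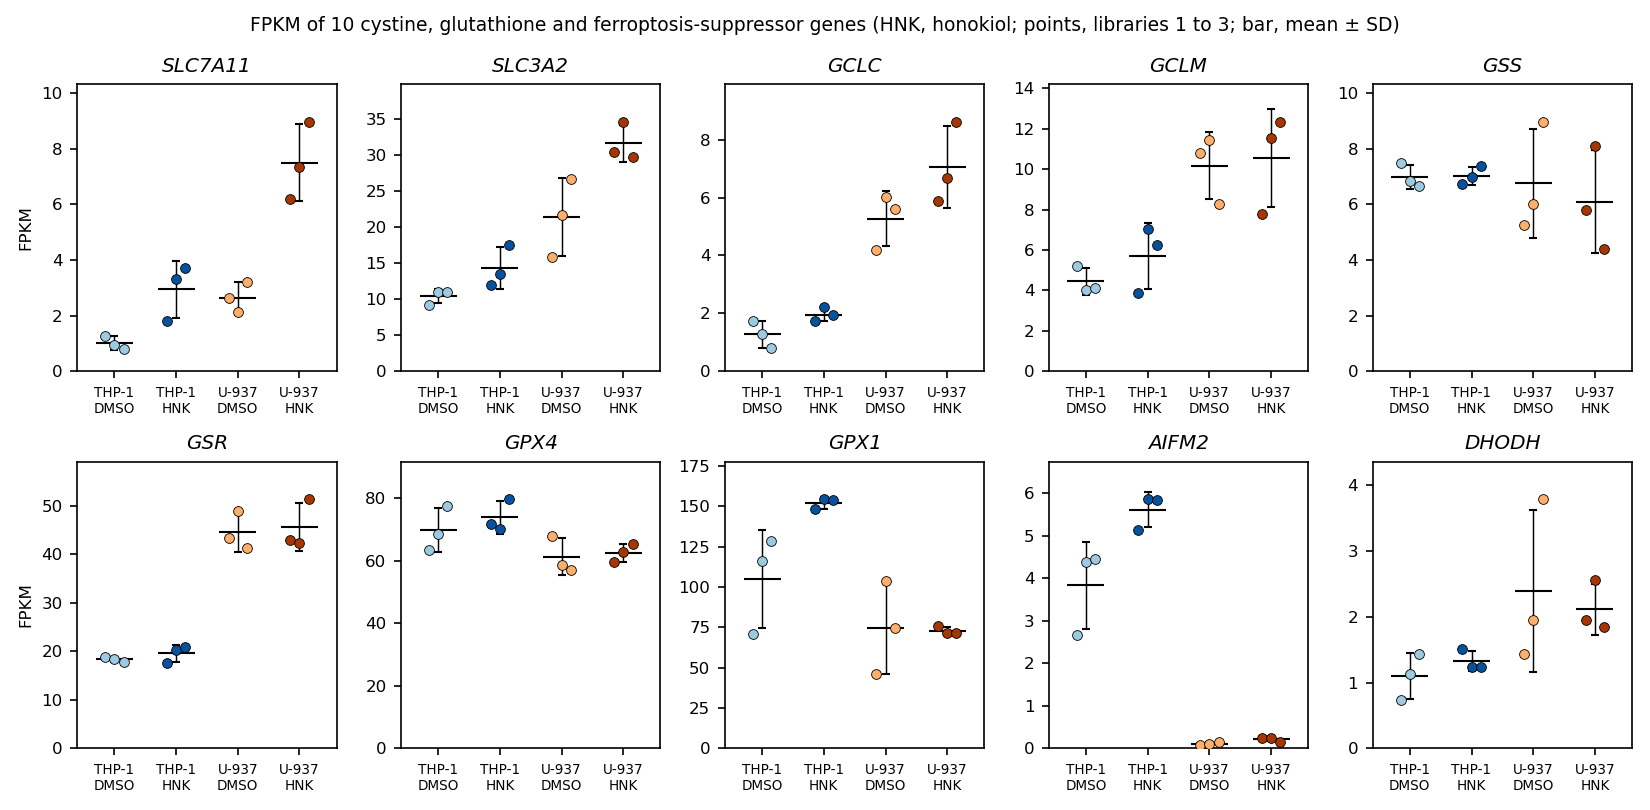
FPKM (y axis, linear, from 0) of each of the 10 genes in the 12 libraries, by cell line and treatment (x axis; HNK, honokiol). Points are libraries and the bars are the mean ± SD of 3; the SLC7A11 libraries with honokiol sit above those with DMSO in both lines, and AIFM2 stays at or below 0.24 FPKM in every U-937 library.

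The first question was whether honokiol moved these genes in each line. Of the 10 genes in THP-1 cells and the 9 tested in U-937 cells, 0 were called, which needed in edgeR's quasi-likelihood test both an adjusted p-value below 0.05 and a log2 fold change beyond 1 in either direction. Few genes of any kind were called, 6 of 14600 (0.0411%) in THP-1 and 13 of 13726 (0.0947%) in U-937. By an unadjusted p-value below 0.05, 4 of the 10 genes were higher with honokiol in THP-1 cells (SLC7A11, SLC3A2, GPX1 and AIFM2), where 6.84% of all tested genes were. In U-937 cells 2 of the 9 were (SLC7A11 and SLC3A2), where 8.25% of all tested genes were, and none of the genes was lower at this level in either line, against 6.22% and 8.44% of all genes. Without DMSO replicate 1 of the line these counts were again 4 and 2 (7.13% and 7.57% of all genes), with GCLC in place of SLC3A2 in THP-1. In FPKM, all honokiol values exceeded the DMSO values of the line for 5 genes in THP-1. GCLC was the fifth, and it overlapped on normalized counts. In U-937 all honokiol values were above those with DMSO for SLC3A2 and SLC7A11 among the genes tested. The same held for 13.0% and 16.7% of all genes. Their median log2 fold change was 0.35 for THP-1 and -0.05 for U-937, beside medians of -0.00 and 0.02 over all tested genes. DESeq2 called 1 of the 10 genes in each line, SLC7A11, and limma on the FPKM values called 0.

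SLC7A11, the cystine-exchanging chain, had the largest log2 fold change of the genes tested in each line. In THP-1 cells it stood at 1.28, 0.93 and 0.80 FPKM with DMSO and at 1.79, 3.31 and 3.71 FPKM with honokiol. In U-937 cells it stood at 2.63, 2.11 and 3.20 FPKM with DMSO and at 6.20, 7.34 and 8.97 FPKM with honokiol. The groups did not overlap in either line, and in THP-1 honokiol replicate 1 lay nearest to the DMSO libraries. The log2 fold change was 1.48 for THP-1 (SE 0.32, adjusted p = 0.168) and 1.42 for U-937 (SE 0.21, adjusted p = 0.0606). SLC7A11 ranked 143 of 14600 genes by p-value in THP-1 and 27 of 13726 in U-937. Leaving out 1 library at a time gave estimates of 1.29 to 1.75 and of 1.26 to 1.54, with adjusted p-values of 0.0700 to 0.617 and of 0.0933 to 0.227. Under DESeq2 the adjusted p-values were 0.00101 and 4.5e-07, and in one edgeR fit of all 12 libraries they were 0.0773 and 0.0382.

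The gene lies on GRCh38 at chr4:138164097-138242349, on the minus strand, and 865 of its exonic bases are shared with SLC7A11-AS1 on the opposite strand. The antisense gene had counts of 0 in all 3 THP-1 libraries with DMSO, 22 to 81 with honokiol, 10 to 21 in U-937 cells with DMSO and 24 to 69 with honokiol. These are small beside the 554 to 5997 counts of SLC7A11. Whether the counting used strand is not stated, so reads of the shared bases cannot be assigned to either gene.

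SLC3A2 (chr11:62856102-62888875, plus strand), the heavy chain that carries SLC7A11 and other light chains to the membrane, differed less. It stood at 9.23, 10.93 and 11.03 FPKM with DMSO and at 11.97, 13.40 and 17.54 FPKM with honokiol in THP-1 cells. In U-937 cells the values were 15.8, 21.7 and 26.6 FPKM with DMSO and 30.5, 34.6 and 29.7 FPKM with honokiol. The groups did not overlap in either line. The log2 fold changes were 0.41 (SE 0.16, adjusted p = 0.353) and 0.48 (SE 0.17, adjusted p = 0.227), and 0.37 and 0.32 without DMSO replicate 1. In THP-1 it was 0.24 without honokiol replicate 3, the highest library.

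Since both chains are needed for 1 transporter, their ratio was taken in each library, a measure chosen after the values were seen. In THP-1 cells SLC7A11 over SLC3A2, in FPKM, averaged 0.0988 ± 0.0351 for DMSO and 0.203 ± 0.0493 for honokiol (SD, n = 3). In U-937 cells the ratio was 0.128 ± 0.0352 and 0.239 ± 0.0546. The libraries did not overlap in either line, and the two-sided exact permutation p was 0.1 in each, the smallest that 3 against 3 allows.

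**Figure D2:**
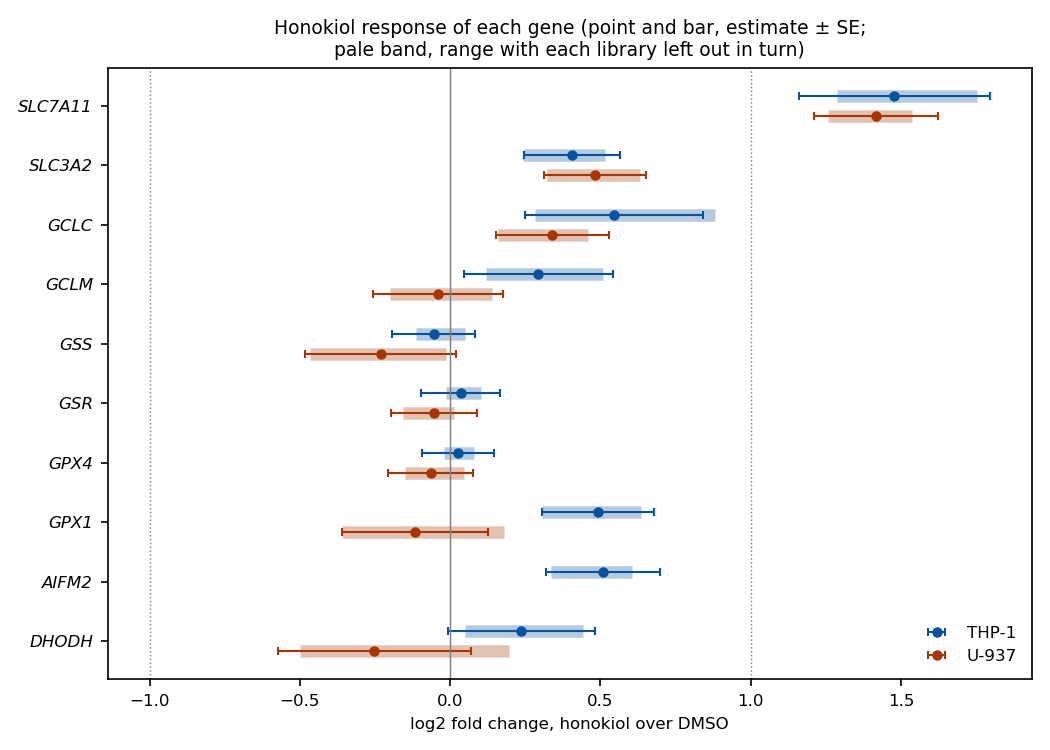
Log2 fold change with honokiol over DMSO (x axis) of each gene (y axis) in THP-1 and U-937 cells; points and bars are the edgeR estimate ± SE, pale bands the range with each library left out in turn, and dotted lines mark a log2 fold change of 1 in either direction. Only SLC7A11 lies beyond 1, at 1.48 and 1.42, and AIFM2 is drawn for THP-1 alone because it was below the FPKM limit in U-937.

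GCLC and GCLM, the catalytic and modifier subunits of glutamate-cysteine ligase, which carries out the rate-limiting step of glutathione synthesis, were not called in either line. GCLC lies at chr6:53497341-53616970 and GCLM at chr1:93885199-93909456, both on the minus strand. GCLC stood at 1.72, 1.29 and 0.80 FPKM with DMSO and at 1.74, 2.20 and 1.93 FPKM with honokiol in THP-1 cells, so the groups were separate by only 0.02 FPKM. The log2 fold change was 0.54 (SE 0.30, adjusted p = 0.458), and ran from 0.28 without DMSO replicate 3, the lowest DMSO library, to 0.88 without DMSO replicate 1, the highest. In U-937 cells GCLC ran from 4.19 to 6.01 FPKM with DMSO and from 5.87 to 8.62 FPKM with honokiol, with overlap and a log2 fold change of 0.34 (SE 0.19, adjusted p = 0.407). In GENCODE 29, GCLC shares 529 exonic bases with the lincRNA AL033397.1 on the same strand, and its counts are uncertain to that extent. GCLM ran from 4.03 to 5.21 FPKM with DMSO and from 3.88 to 7.03 FPKM with honokiol in THP-1, and from 8.29 to 11.44 and from 7.80 to 12.34 FPKM in U-937. It overlapped between treatments in both lines, with log2 fold changes of 0.29 (SE 0.25) and -0.04 (SE 0.22).

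GSS, which adds glycine to form glutathione, GSR and GPX4 overlapped between treatments in both lines. GSS (chr20:34928432-34956027, minus strand) ran from 6.67 to 7.49 FPKM in the 6 THP-1 libraries and from 4.41 to 8.97 FPKM in the 6 U-937 libraries. GSR ran from 17.65 to 20.94 FPKM in THP-1 and from 41.2 to 51.3 FPKM in U-937. GPX4 (chr19:1103926-1106788, plus strand) kept to between 57.1 and 79.7 FPKM in all 12 libraries, with overlap between the lines as well. The log2 fold change intervals of ± 2 SE ran from -0.33 to 0.22 for GSS, from -0.23 to 0.30 for GSR and from -0.21 to 0.27 for GPX4 in THP-1 cells. In U-937 cells they ran from -0.73 to 0.27, from -0.34 to 0.23 and from -0.35 to 0.21. For these 3 genes a log2 fold change of 1 in either direction lay outside the intervals in both lines.

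GPX1 (chr3:49357176-49358353, minus strand) stood at 70.9, 116.1 and 128.6 FPKM with DMSO and at 148.2, 154.5 and 153.8 FPKM with honokiol in THP-1 cells, with no overlap. DMSO replicate 1, a library of high mitochondrial share, was the low value. The log2 fold change was 0.49 (SE 0.19, adjusted p = 0.335) and 0.31 without that library. In U-937 cells GPX1 stood at 46.3, 103.7 and 74.8 FPKM with DMSO and at 75.6, 71.3 and 71.7 FPKM with honokiol, and the log2 fold change was -0.12 (SE 0.24, adjusted p = 0.846). It was -0.36 without DMSO replicate 1 and 0.18 without replicate 2. GPX1 has a near-identical copy, GPX1P1, listed at 36.2 and 64.7 FPKM in THP-1 and at 20.6 and 31.7 FPKM in U-937 cells with DMSO and with honokiol, so the split of reads between the 2 is uncertain. With their counts summed the log2 fold changes were 0.54 and -0.02. The part of the mitochondrial share in these values was not tested.

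AIFM2 (chr10:70098223-70132934, minus strand) also did not overlap in THP-1 cells, at 2.66, 4.38 and 4.45 FPKM with DMSO and 5.14, 5.86 and 5.84 FPKM with honokiol. The log2 fold change was 0.51 (SE 0.19, adjusted p = 0.333) and 0.34 without DMSO replicate 1. In U-937 cells it stood at 0.07, 0.11 and 0.14 FPKM with DMSO and at 0.24, 0.24 and 0.16 FPKM with honokiol, which is 26 to 90 counts or about 6.5 to 22.5 fragments. The groups did not overlap, but these levels are below the limit of 0.5 FPKM, and a fit without that limit estimated it at 0.87 on the log2 scale (SE 0.42, adjusted p = 0.563). DHODH (chr16:72008588-72027664, plus strand), which takes part in pyrimidine synthesis as well, ran from 0.73 to 1.51 FPKM in THP-1 and from 1.44 to 3.79 FPKM in U-937. It overlapped between treatments in both lines, with log2 fold changes of 0.24 (SE 0.25) and -0.25 (SE 0.32). Without DMSO replicate 1 they were 0.05 and -0.50, and without U-937 DMSO replicate 3 the latter was 0.20.

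The second question was whether the lines answered honokiol differently. Of the 10 genes 0 were called for the difference between the lines by edgeR, and 0 by DESeq2 or limma, where edgeR called 18 of 16283 genes (0.111%). An unadjusted p-value under 0.05 was reached by 0 of the 10 and by 9.37% of all genes. For SLC7A11 the log2 fold change in U-937 minus that in THP-1 was -0.07, with an interval of ± 2 SE from -0.88 to 0.73. For SLC3A2 it was 0.07, from -0.42 to 0.55. GPX1 had the largest difference, -0.62, with an interval from -1.29 to 0.05 (adjusted p = 0.592). Leaving out U-937 DMSO replicate 1 gave -0.86 and leaving out replicate 2 gave -0.32. The mean ratio of GPX1 to GPX4 was 1.49 ± 0.323 for DMSO and 2.07 ± 0.138 for honokiol libraries of THP-1, and 1.25 ± 0.546 and 1.17 ± 0.0908 in U-937 cells (SD, n = 3), with two-sided exact permutation p-values of 0.1 and 1.

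The third question was how the lines compared with DMSO alone. In edgeR's test 6 of the 10 genes were called, 1 higher in THP-1 and 5 lower, and SLC3A2 had an adjusted p-value under 0.05 below the fold limit. Differences between these lines are common, since 32.4% of all tested genes were called, 18.4% higher in THP-1 and 13.9% lower, and 47.3% had an adjusted p-value under 0.05 at any fold change. The median log2 fold change of THP-1 over U-937 was -1.02 for the 10 genes and 0.04 for all genes.

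Both transporter chains, both ligase subunits and the reductase were lower in THP-1, and GSS was not called. GCLC differed most, at 1.27 ± 0.460 FPKM in THP-1 and 5.27 ± 0.955 FPKM in U-937 cells (SD, n = 3). Its log2 fold change of THP-1 over U-937 was -1.97 (SE 0.31, adjusted p = 0.00097). SLC7A11 followed at -1.33 (SE 0.27, adjusted p = 0.00409), GSR at -1.22 (SE 0.16, adjusted p = 0.000324) and GCLM at -1.14 (SE 0.22, adjusted p = 0.00301). SLC3A2, at -0.98 (SE 0.19, adjusted p = 0.00282), lay just under the limit. For these 5 genes every THP-1 library was below every U-937 library. SLC7A11 was under the fold limit with limma on log2(FPKM + 1), at -0.86, and GCLM without THP-1 DMSO replicate 2 (-0.97) or replicate 3 (-0.99).

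DHODH was called at -1.06 (SE 0.37, adjusted p = 0.0420), but the call was lost in 4 of the 6 fits that left out 1 library. U-937 DMSO replicate 3 stood at 3.79 FPKM beside 1.44 and 1.95 FPKM in the others, and without it the log2 fold change was -0.65 (adjusted p = 0.141). Without THP-1 DMSO replicate 1, 2 or 3 it was -0.81, -0.99 or -1.21 (adjusted p = 0.136, 0.114 or 0.0523). The call was also lost with limma at pseudocounts of 0.1, 0.5 and 1. The log2 fold changes there were -0.99, -0.80 and -0.65 (adjusted p = 0.0742, 0.0725 and 0.0751). With the replicate number as a block in edgeR the log2 fold change was -0.9995, under the fold limit. GSS, GPX4 and GPX1 overlapped between the lines, with log2 fold changes of 0.12 (SE 0.21), 0.23 (SE 0.16) and 0.54 (SE 0.29).

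AIFM2 ran the other way, at 3.83 ± 1.01 FPKM in THP-1 and 0.107 ± 0.0351 FPKM in U-937 cells (SD, n = 3). The log2 fold change was 5.17 (SE 0.34, adjusted p = 1.12e-05). It passed the FPKM limit in 6 of 6 THP-1 libraries and in 0 of 6 U-937 libraries. A gene that enters the test only through the line where it is high had to differ, so its call adds nothing to the count, and with a THP-1 library left out it was no longer tested. Without DMSO replicate 1 of both lines 5 of the 9 genes tested were called, with SLC3A2 (-1.05) in and DHODH (-1.07, adjusted p = 0.0503) out. Of all 12281 genes tested in that fit 2831 were called.

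The ratio of the ligase subunits was also compared between the lines, after the values were seen. GCLC over GCLM, in FPKM, was 0.282 ± 0.0755 for THP-1 and 0.530 ± 0.144 for U-937 cells with DMSO (SD, n = 3), with no overlap and a two-sided exact permutation p of 0.1. With honokiol it was 0.357 ± 0.0793 and 0.676 ± 0.0899, and the libraries overlapped those with DMSO in both lines (exact permutation p = 0.6 and 0.2). Over the 3 ratios 9 comparisons were made, and none could pass a threshold of 0.05 with 3 libraries a group.

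**Figure D3:**
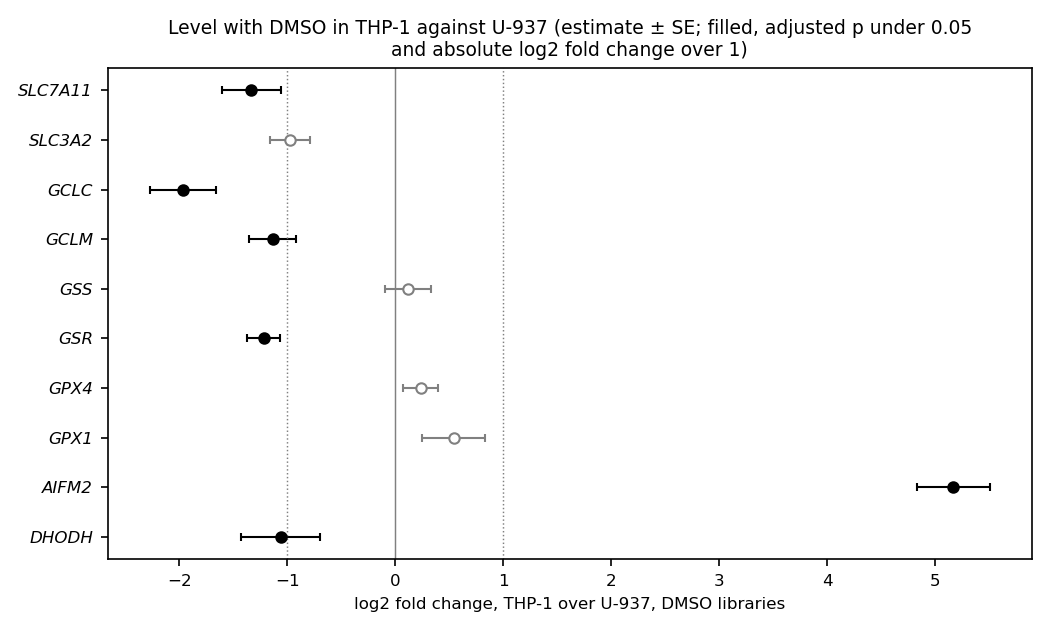
Log2 fold change of THP-1 over U-937 (x axis) for each gene (y axis) in the 6 DMSO libraries; points and bars are the edgeR estimate ± SE, and filled points are called. GCLC at -1.97, SLC7A11, GSR, GCLM and DHODH lie on the side of U-937, and AIFM2 at 5.17 on that of THP-1.

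The genes with the profile most like that of SLC7A11 were sought over the 12 libraries, by the root mean square difference of log2 CPM after each gene was centred on its own mean. Among 12246 genes with a mean of at least 1 FPKM the nearest were SAT1 at 0.368, TNFRSF21 at 0.369, AC068580 (ENSG00000235027) at 0.430, MGLL at 0.438 and ITGAL at 0.450. SAT1 acetylates spermidine and spermine, TNFRSF21 is death receptor 6, MGLL is monoacylglycerol lipase and ITGAL is the alpha chain of the integrin LFA-1. Like SLC7A11, all 5 were higher with honokiol with no overlap in both lines and lower in THP-1 than in U-937 with DMSO. They were picked for likeness over these same libraries, so this follows largely from the choice. TNFRSF21 had means of 8.66 and 22.1 FPKM in THP-1 and of 17.9 and 42.3 FPKM in U-937 cells, and MGLL of 1.86 and 6.40 FPKM and of 9.66 and 21.1 FPKM. The likeness describes these libraries, which share line and treatment.

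**Figure D4:**
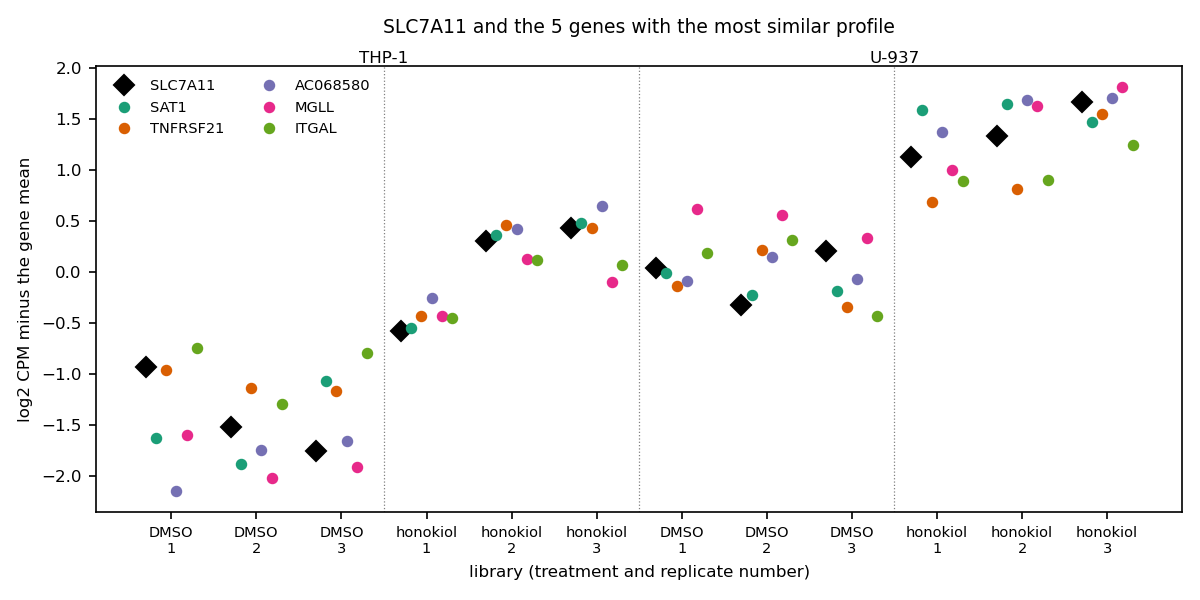
Log2 CPM minus the mean of each gene over the 12 libraries (y axis) by library (x axis) for SLC7A11 (diamonds) and the 5 genes nearest to it (circles); replicates have no order. By group mean all 6 genes are lowest in THP-1 cells with DMSO and highest in U-937 cells with honokiol, which the choice by profile favours.

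Around the 10 genes, 88 genes of 5 related lists were followed. Of these 0 were called with honokiol by edgeR, where 81 (THP-1) and 77 (U-937) could be tested, and the genes named next are those with the smallest unadjusted p-values under 0.05. Of the 81 genes 9 were higher and 3 lower at that level in THP-1, beside 6.84% and 6.22% of all tested genes. Of the 77 genes 9 were higher and 7 lower in U-937, beside 8.25% and 8.44% of all tested genes.

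The 14 regulators had the highest median log2 fold change of the lists, 0.44 in THP-1 and 0.21 in U-937. By an unadjusted p-value below 0.05, 6 were higher and 1 lower in THP-1, and 4 higher and 2 lower in U-937. Over all tested genes 6.84% were higher and 6.22% lower in THP-1, and 8.25% and 8.44% in U-937. DDIT3 (CHOP), a transcription factor of the integrated stress response, was at 13.1 ± 3.10 and 34.8 ± 16.4 FPKM in THP-1, and at 4.97 ± 0.453 and 14.7 ± 3.87 FPKM in U-937 cells with DMSO and with honokiol (SD, n = 3). Its log2 fold changes were 1.36 (adjusted p = 0.176) and 1.47 (adjusted p = 0.0637). In THP-1 cells MAFF, a small MAF partner of NRF2, averaged 0.553 FPKM with DMSO and 2.04 FPKM with honokiol, a log2 fold change of 1.84 (adjusted p = 0.168). SQSTM1 (p62), which binds the NRF2 inhibitor KEAP1, stood at 0.94 (adjusted p = 0.157) and BACH1, a repressor at NRF2 sites, at 0.52 (adjusted p = 0.291). In U-937 cells TRIB3, a target of ATF4 and CHOP, stood at 0.68 (adjusted p = 0.0833), BACH1 at 0.67 (adjusted p = 0.0995) and ATF4, which drives amino acid transporter genes, at 0.57 (adjusted p = 0.177).

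The 12 genes of cysteine supply had median log2 fold changes of 0.01 and 0.10. In THP-1 cells the neutral amino acid transporter SLC1A4 stood at -0.59 (adjusted p = 0.244), MAT2A, which makes S-adenosylmethionine, at -0.74 (adjusted p = 0.326), and AHCY, which releases homocysteine, at 0.49 (adjusted p = 0.345). In U-937 cells the transporter SLC38A2 stood at 0.65 (adjusted p = 0.154), CTH, the last step of transsulfuration to cysteine, at 0.80 (adjusted p = 0.156), and AHCY at -0.28 (adjusted p = 0.276). AHCY thus had opposite signs, and its difference between the lines was -0.78 (adjusted p = 0.316).

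The remaining lists had no more genes at that level than cysteine supply in either line. Of glutathione turnover, HAGH, a glyoxalase, stood at 0.62 in THP-1 (adjusted p = 0.287). In U-937 cells ANPEP, an aminopeptidase that cleaves cysteinylglycine, stood at -0.75 (adjusted p = 0.132), and the glutaredoxins GLRX and GLRX3 at 0.75 and -0.33. Of the GPX family and selenoprotein synthesis, SEPSECS, which forms selenocysteine on its tRNA, stood at 0.69 (adjusted p = 0.142) and LRP8, a selenoprotein P receptor, at -0.35 in U-937. Of the quinone and tetrahydrobiopterin arm, 1 gene was higher in THP-1, COQ8A at 0.44, and 1 was higher and 1 lower in U-937, the latter VKORC1L1 at -0.37.

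**Figure D5:**
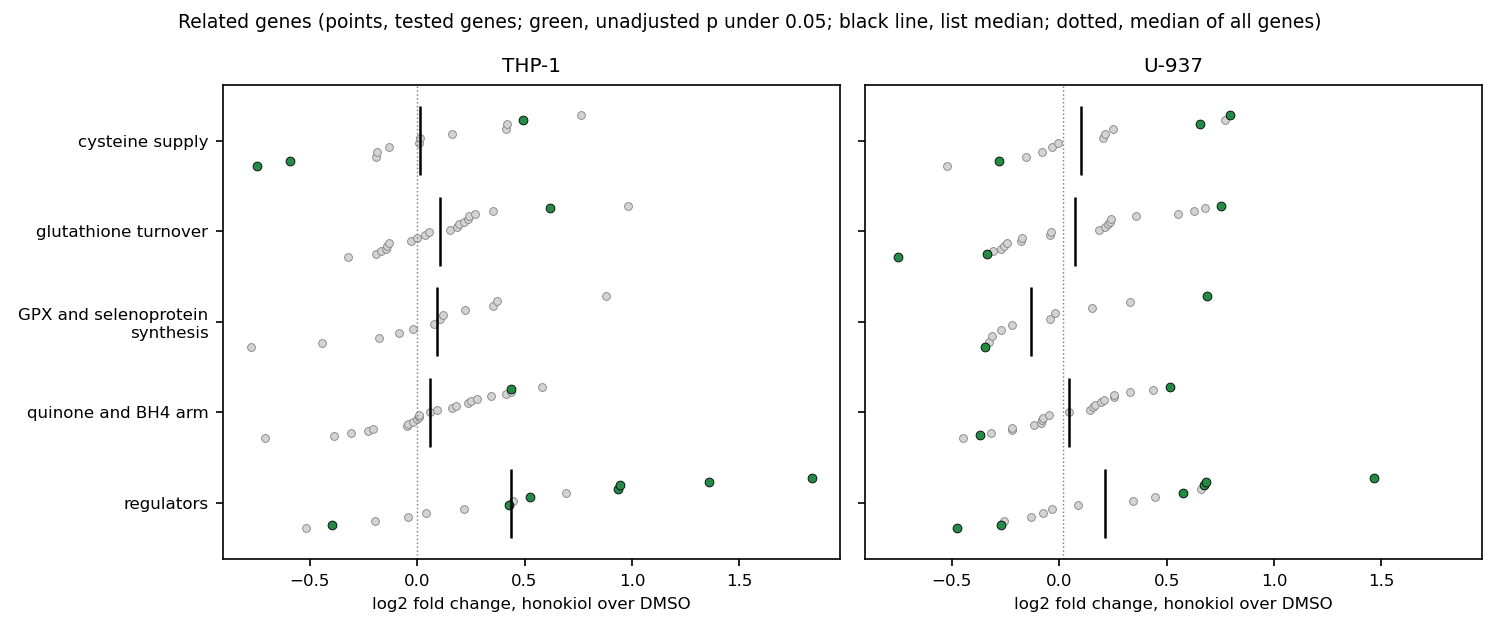
Log2 fold change with honokiol over DMSO (x axis) of the tested genes of 5 related lists (rows) in THP-1 (left) and U-937 (right); green points have an unadjusted p-value under 0.05, black lines are list medians and dotted lines the median of all genes. The regulators have the highest list median in both lines, 0.44 and 0.21.

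With DMSO, 22 of 83 tested genes of these lists were called between the lines, 9 higher and 13 lower in THP-1, beside the 32.4% of all genes. Of cysteine supply, CTH (log2 fold change -3.08), SLC1A4 (-2.06), SLC7A5 (-1.68) and SLC1A5 (-1.28) were lower and SLC38A2 (2.59) was higher in THP-1. SLC7A5 is another light chain that pairs with SLC3A2, and it stood at 31.7 FPKM in THP-1 but 106.0 FPKM in U-937 cells. Of glutathione turnover, GLO1 (-2.08), ESD (-1.08) and CHAC2 (-1.77) were lower. Of the selenoprotein list LRP8 (-1.30) was lower, as were GCH1 (-1.97), the first enzyme of tetrahydrobiopterin synthesis, SQSTM1 (-1.20) and MAFF (-1.76). QDPR (1.13) and DDIT3 (1.44) were higher.

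Like AIFM2, 8 of the called genes passed the FPKM limit in 1 line alone, so their calls were bound to differ and add nothing to the count. The 2 lower in THP-1, the dipeptidase DPEP2 and the selenocysteine kinase PSTK, averaged 0.0867 and 0.243 FPKM there and 0.623 and 1.05 FPKM in U-937 cells with DMSO. The other 6 were high in THP-1. GPX7, a peroxidase of the endoplasmic reticulum, stood at 35.5 ± 4.93 FPKM in THP-1 cells with DMSO and was listed at 0 in all 3 U-937 libraries. GGT7 stood at 8.11 FPKM, SPR, the last enzyme of tetrahydrobiopterin synthesis, at 4.29 FPKM, MBOAT2, a phospholipid acyltransferase, at 3.10 FPKM, GPX3 at 2.33 FPKM and GPX8 at 1.26 FPKM in THP-1. The highest U-937 mean of these 5 with DMSO was that of GPX3, 0.207 FPKM. CTH and MAFF, named above, had medians of 0.39 and 0.47 FPKM in THP-1 with DMSO, under the limit of 0.5 FPKM. They entered the test through the U-937 libraries, so their calls likewise add nothing to the count. GGT5, DPEP1, GPX2 and SELENOP were not tested in any comparison, since fewer than 3 libraries reached the limit.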

How the data were processed

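RNA-seq of 12 libraries was taken from 1 deposited table. The authors deposited FPKM with 2 decimals and estimated counts per gene, whole numbers in which 1 fragment weighs about 4. The submitters' notes name HISAT2 2.0, StringTie 1.3.0, Bowtie 0.12.2 and the mouse build mm8, with no roles, whereas the gene coordinates fit human GRCh38 (22472 of 36866 genes identical in start and end to GENCODE 29). The counter's strand setting and the dose per line are not given in the sources used here. Labels and methods differ in instrument and RNA amount, and the design text speaks of a microarray.

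Genes with at least 0.5 FPKM in at least 3 libraries of a comparison were tested on the counts with edgeR 4.0.16 (quasi-likelihood, TMM, R 4.3.3) and Benjamini-Hochberg adjustment over all tested genes. A gene was called at an adjusted p under 0.05 if its log2 fold change also exceeded 1 in either direction. Intervals are ± 2 SE. Alternatives used DESeq2 1.42.0, limma 3.58.1 on log2(FPKM + pseudocount), other filters, and each library left out in turn. Leaving out DMSO replicate 1 of the line or of both lines, summing GPX1 with its copy, and the ratios were chosen after seeing the data. The edgeR fits were also run on simulated counts of a single dispersion, which checks the code and does not copy the spread of these data.

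The members and lists were chosen with earlier results of these data known. Beside the members, the text names every related gene called in a comparison, otherwise up to 4 per list and line with the smallest unadjusted p under 0.05, and the 5 genes nearest to SLC7A11. The values of 1 gene that this rule names are not reported here. Correlations of same-numbered deviations between groups were weak, from -0.155 to 0.113. In the DMSO groups of the lines each library still correlated best with its own number, and whether the numbers mark a batch was not tested.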

Additional observations from a re-analysis of the deposited data

How the results depend on the processing

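Of 664 alternative values of the 39 gene results 595 kept their direction and side of the threshold, 49 changed sign, in 15 results whose reported log2 value was at most 0.37, 12 lost a call and 8 gained one. The cause was not tested in any of these. Genes called with honokiol, 6 in THP-1 and 13 in U-937, numbered 250 and 223 under DESeq2, 408 and 347 by unadjusted p with the same fold limit, and 24 and 78 in one fit of all libraries. In THP-1 they were 0 with no filter and 0 under limma at each pseudocount (0.1, 0.5 and 1). Of the 10 genes, SLC7A11 was the 1 called by DESeq2 and by unadjusted p in each line, and the 1 called in U-937 in the one fit. For the difference between the lines, 18 genes became 181 under DESeq2, 1, 2 and 3 under limma at pseudocounts of 0.1, 0.5 and 1, 699 by unadjusted p, 0 with counts divided by 4, 0 among genes past the limit in both lines and 7 without DMSO replicate 1 of both lines. Between the lines with DMSO, 4730 became 3084 under limma with a pseudocount of 1 and 2831 without DMSO replicate 1 of both lines.

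With the replicate number as a block, 0 genes were called with honokiol in THP-1, 0 in U-937 and 0 for the difference, while 5 of the 10 genes were called between the lines with DMSO. The numbers are not stated to pair the libraries, and of the 3 pairs of groups compared, every library correlated best with its own number in 1, the DMSO groups of the lines.

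Signs changed under limma at pseudocounts of 0.1, 0.5 and 1 for GSS in THP-1 (0.0069, 0.0065 and 0.0060). In U-937 they did so for GCLM (0.0396, 0.0387 and 0.0375), GSR (0.0336, 0.0333 and 0.0330), GPX4 (0.0327, 0.0324 and 0.0322) and GPX1 (0.0360, 0.0353 and 0.0345). For the difference SLC7A11 gave 0.051, 0.19 and 0.27, and AIFM2 gave -0.29 and -0.34 at 0.5 and 1. Without DMSO replicate 1 of both lines the difference was -0.052 for SLC3A2 and 0.036 for GPX4, and GSS between the lines was -0.061.

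With each library left out in turn, genes called ran from 0 to 43 in THP-1, 0 to 6 in U-937 and 1 to 22 for the difference, and the members called between the lines with DMSO from 3 (without THP-1 DMSO replicate 2 or 3) to 7 (without U-937 DMSO replicate 1 or 2). THP-1 gave -0.11 to 0.048 for GSS, -0.013 to 0.10 for GSR and -0.022 to 0.080 for GPX4. U-937 gave -0.20 to 0.14 for GCLM, -0.16 to 0.012 for GSR, -0.15 to 0.047 for GPX4, -0.36 to 0.18 for GPX1 and -0.50 to 0.20 for DHODH. The difference gave -0.35 to 0.12 for SLC7A11, -0.085 to 0.23 for SLC3A2, -0.56 to 0.046 for GCLC, -0.43 to 0.030 for GSS and -0.18 to 0.017 for GPX4, and the lines with DMSO -0.053 to 0.30 for GSS. AIFM2 could not be fitted between the lines without a THP-1 DMSO library, since 3 libraries past the FPKM limit are required.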
